A study of Mus musculus with 6 samples.

Results

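Proteins that are made in the cytosol and work inside mitochondria pass through membrane complexes called translocases, and the genes of these complexes were followed here in mouse hearts sequenced after loss of thioredoxin-1 was targeted to cardiomyocytes. The members are the genes of the deposited table whose names begin with Timm or Tomm, together with Dnajc19, Pam16, Grpel1, Samm50 and Mtx2. They were 29 of the 14133 genes in the table. The hearts were taken from C57BL/6 mice at 1 month of age and form 2 groups of 3 libraries. The first group carried Trx1 flox/flox alleles and an MHC-Cre transgene (replicates 6, 7 and 8), in which the Myh6 promoter drives Cre recombinase in cardiomyocytes. The second group, the controls, carried the same Trx1 flox/flox alleles without the transgene (replicates 3, 4 and 5). No library with Cre and without floxed alleles is among the samples, so effects of Cre itself and of the loss of thioredoxin-1 cannot be told apart. Whether the replicates were separate animals is not stated, and each p measures the spread between these libraries.

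The outer membrane holds the TOM complex, the common entry gate, and the SAM complex, which places barrel-shaped proteins in that membrane. Small TIM proteins carry water-repelling cargo across the space between the membranes. In the inner membrane the TIM22 complex inserts carrier proteins, and the TIM23 complex passes proteins with a cleavable leader towards the matrix, where a motor built around the chaperone Hspa9 pulls them in. The small TIM proteins hold pairs of cysteines that are oxidised after entry by a relay of Chchd4 and Gfer, and in the yeast Saccharomyces cerevisiae cytosolic thioredoxin keeps them reduced before entry. The heart is rich in mitochondria and depends on this import.

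Txn1, the targeted gene, had 6.95, 6.90 and 7.13 log2 CPM in replicates 6, 7 and 8 labelled knockout, against 6.64, 6.996 and 7.04 log2 CPM in control replicates 3, 4 and 5. CPM are read counts scaled by library size, here on a log2 scale. Its RNA was not lower in the first group (log2 fold change 0.10, 95% confidence interval -0.22 to 0.42, limma adjusted p = 0.72). The value covers the whole gene and all cells of the heart, so it does not check the labels, and the first group is called labelled knockout throughout. Recovered reads came to 8347636 to 10236783 per labelled knockout library and 9257984 to 13705281 per control library. The deposited CPM of all genes summed to 921199 to 1001288 per labelled knockout library and 1017500 to 1044059 per control library. These totals were thus not equal, and the deposited scaling was not by the recovered read totals alone. The median difference from the control mean over all tested genes was -0.006, -0.0035 and 0.0061 log2 units in replicates 6, 7 and 8. Sums of CPM below keep the deposited scaling and are not corrected for the unequal totals. The 28 tested members had 84 to 6039 reads per library. The tissue label was checked against markers. Of 10 cardiomyocyte markers 4 fell, with a summed level of 87560 to 119500 CPM in labelled knockout libraries against 139300 to 153700 CPM in controls. Of 7 fibroblast markers 4 rose, with a summed level of 2875 to 7277 CPM in labelled knockout libraries against 1641 to 2151 CPM in controls. Among endothelial markers 1 of 6 fell, among smooth muscle and pericyte markers 1 of 6 rose, and 0 of 6 macrophage, 0 of 3 tested lymphocyte and 0 of 3 erythroid markers passed the test. Over all tested genes 4.87% fell and 4.79% rose. None of the markers found among the deposited genes lay at the lowest value of the table in all 6 libraries. Cd3e, Nkg7, Hba-a1 and Hba-a2 were also listed as markers and were not among those genes. In whole heart RNA, fewer cells of a type and less RNA per cell cannot be told apart, and the part of these marker shifts in the results on import genes was not tested.

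The promoters of 4 members are shown because they set the genes with a nuclear receptor motif beside a TIM23 subunit with none. Each runs from 250 bases before to 50 bases after the gene's start, 5′ to 3′ on the gene's strand, from RefSeq on GRCm38.p6, and capitals mark matches to any of 7 motifs searched on both strands.
Timm23, chr14:32201842-32202141, minus strand: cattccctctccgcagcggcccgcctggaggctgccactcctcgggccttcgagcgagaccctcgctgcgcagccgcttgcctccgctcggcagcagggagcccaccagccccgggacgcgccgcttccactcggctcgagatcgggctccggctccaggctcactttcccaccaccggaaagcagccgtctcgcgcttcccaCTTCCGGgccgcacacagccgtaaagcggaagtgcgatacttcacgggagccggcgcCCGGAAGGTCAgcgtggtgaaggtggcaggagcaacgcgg
Timm44, chr8:4275856-4276155, minus strand: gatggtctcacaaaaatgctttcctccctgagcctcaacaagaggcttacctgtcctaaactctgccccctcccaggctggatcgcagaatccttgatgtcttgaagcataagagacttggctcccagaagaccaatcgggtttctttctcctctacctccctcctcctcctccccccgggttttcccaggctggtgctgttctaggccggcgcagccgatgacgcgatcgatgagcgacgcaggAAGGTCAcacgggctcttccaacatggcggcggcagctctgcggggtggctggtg
Timm8b, chr9:50603651-50603950, plus strand: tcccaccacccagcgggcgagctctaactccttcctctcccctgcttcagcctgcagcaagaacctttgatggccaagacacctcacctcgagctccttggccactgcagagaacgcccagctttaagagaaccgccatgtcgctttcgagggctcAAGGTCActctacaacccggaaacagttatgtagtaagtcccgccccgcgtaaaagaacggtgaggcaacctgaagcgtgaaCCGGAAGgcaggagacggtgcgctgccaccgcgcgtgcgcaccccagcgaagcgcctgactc
Timm17a, chr1:135313688-135313987, minus strand: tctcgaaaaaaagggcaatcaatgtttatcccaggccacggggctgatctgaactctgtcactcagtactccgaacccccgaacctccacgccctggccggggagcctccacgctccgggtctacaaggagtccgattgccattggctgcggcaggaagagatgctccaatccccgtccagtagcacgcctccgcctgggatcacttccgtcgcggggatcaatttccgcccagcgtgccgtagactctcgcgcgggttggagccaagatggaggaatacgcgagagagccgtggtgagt

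Promoter sequences were found for 26 of the 29 members. The motif AAGGTCA, bound by estrogen-related receptors and other nuclear receptors, was in the promoters of Timm23, Timm44 and Timm8b and of no other of the 26. It was in 4.72% of all 32851 promoters of this length and in 3.8% of the 9791 tested genes with a promoter sequence. In Timm23 it begins at base 15 of the transcript and overlaps an ETS match, in Timm44 it begins 5 bases and in Timm8b 94 bases upstream of the start. The levels of these 3 genes were lower without overlap between the groups, as were 16.2% of all tested genes. So were those of Dnajc19, Samm50, Timm22, Timm50 and Timmdc1, whose promoters held no match to AAGGTCA, and of Timm21 and Tomm40l, which had no promoter sequence. Of the TIM23 subunits without that match, Timm17a, shown above, had a log2 fold change of -0.0027. Timm50 and Timm17b, which are not shown, stood at -0.35 each. The ETS motif CCGGAAG was in 11 of the 26 genes, against 8.86% of all promoters and 19.7% of the tested genes. The genes were Grpel1, Mtx2, Timm10, Timm10b, Timm23, Timm29, Timm8b, Timmdc1, Tomm22, Tomm34 and Tomm70a. Among all 26 genes with a promoter sequence, Timm23 alone passed the test on its level. The motif of NRF2, TGACNNNGC, was in Mtx2 and Tomm20, against 12.4% of all promoters and 17.1% of the tested genes. That of NRF1, GCATGCGC, was in Grpel1 and Timm13, against 2.71% and 5.91%, and that of YY1, AAGATGGC, was in Timm50, against 2.75% and 5.26%. A longer form of the NRF1 motif, of 10 letters, was counted first and was in 0 of the 26 genes and 0.971% of all promoters, and the shorter form was chosen after that count was seen. No member had a match to TGACGTCA (CRE, 1.79% of all promoters and 3.54% of the tested genes) or TGATGNAA (an ATF4 composite site, 3.97% and 2.77%). A match describes letters in this window and is no evidence of binding.

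Import genes were mostly somewhat lower in the hearts labelled knockout, and 3 of the 28 tested members fell: Timm21, Timm23 and Tomm40l. Timm21 RNA stood at 48.4%, Tomm40l at 63.1% and Timm23 at 67.0% of the control level. None rose. The fit covered the 12516 genes whose mean reached 0 log2 CPM (limma with an intensity trend, Benjamini-Hochberg, adjusted p under 0.05), of which 4.87% fell and 4.79% rose. The share of members past the test, 10.7%, was thus close to the 9.66% of all tested genes past it in either direction. The log2 fold change was below 0 in 24 of the 28 members and in 51.2% of all tested genes, and its median was -0.23 against -0.01. In 10 members all labelled knockout libraries lay below all controls, a share of 35.7%, while 16.2% of all tested genes did so. The opposite order was found in 0 members and in 14.4% of all tested genes, so separation in either direction covered 35.7% of the members and 30.7% of all tested genes. Without adjustment, 10 of the 28 members and 24.8% of all tested genes had p under 0.05. Tomm20l, the remaining member, lay under the filter.

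**Figure D1:**
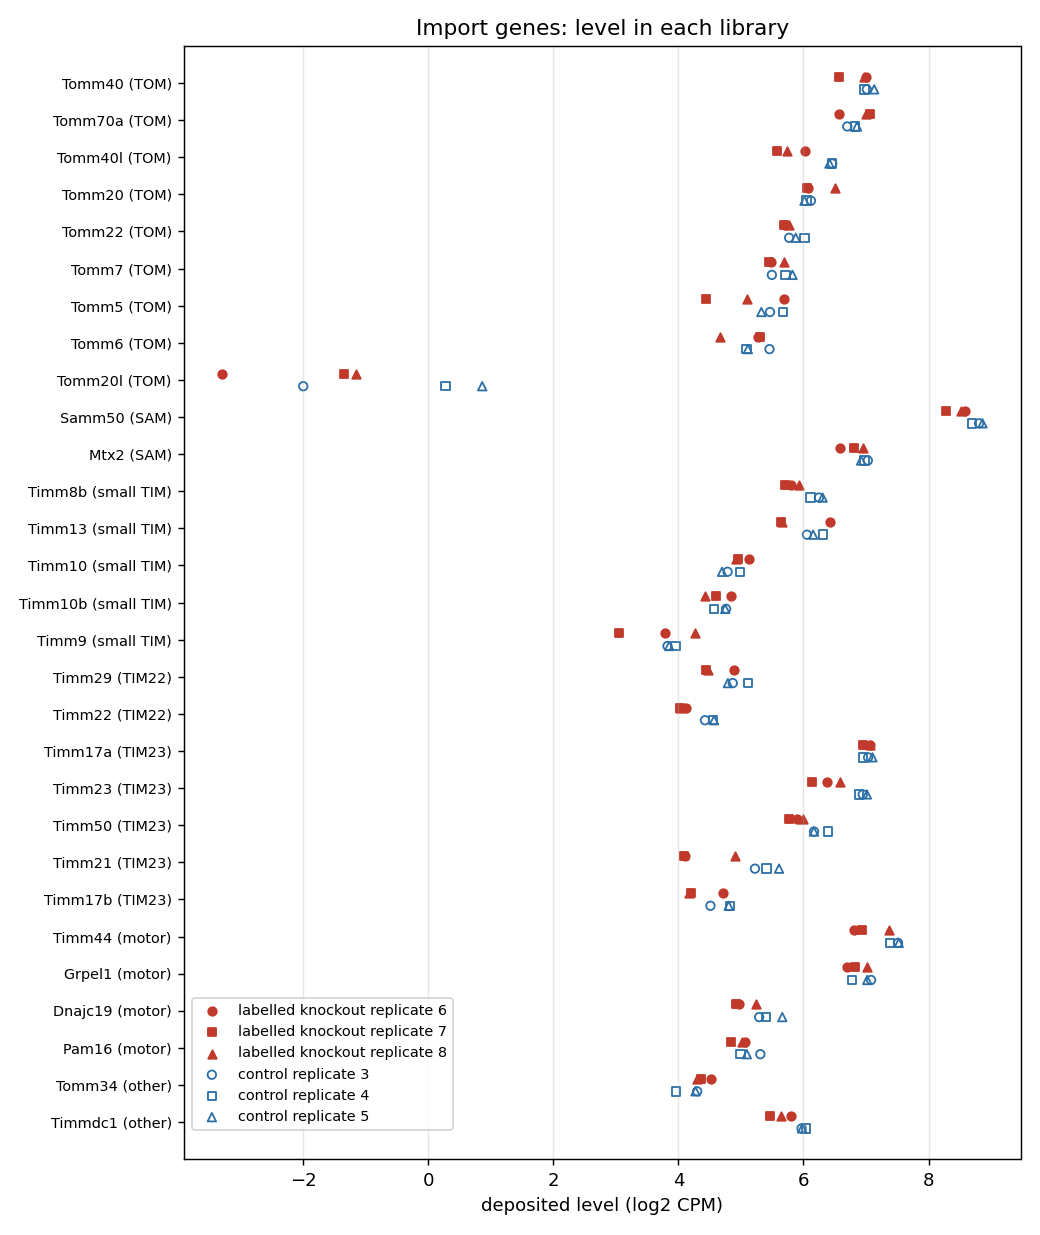
Deposited levels of the 29 import genes in log2 CPM (x axis), 1 point per library, with labelled knockout libraries as filled red points above the open blue control points; the name in brackets gives the complex. Timm21, Timm23 and Tomm40l are separated by group, the levels of Timm17a lie between 6.95 and 7.10 log2 CPM in all 6 libraries, and Tomm20l lies at 0.86 log2 CPM or lower in each library.

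The inner membrane complexes, counted here as TIM22, TIM23 and the import motor on the matrix side, lay further below control than TOM and SAM of the outer membrane. Over 11 inner membrane genes the median log2 fold change was -0.35, with 2 fallen, 11 of 11 below 0 and 6 without overlap between the groups. Over 10 tested outer membrane genes it was -0.18, with 1 fallen, 8 of 10 below 0 and 2 without overlap. The 5 small TIM genes had a median of -0.17, with 0 past the test and 1 without overlap. Over all tested genes 4.87% fell, 51.2% were below 0 and 16.2% were lower without overlap. Inner membrane genes summed to 648, 618 and 745 CPM in replicates 6, 7 and 8 labelled knockout, against 834, 806 and 865 CPM in control replicates 3, 4 and 5. Outer membrane genes summed to 1021, 924 and 1052 CPM in the labelled knockout libraries, against 1157, 1136 and 1185 CPM in the controls. Both sums were lower in each labelled knockout library than in each control, at 80.2% of the control mean for the inner and 86.2% for the outer membrane. By complex the sums were 90.5% for TOM, 81.7% for SAM, 77.0% for TIM22, 79.0% for TIM23 and 82.0% for the motor. SAM, with 2 genes, thus lay about as low as the motor by this measure. Median log2 fold changes were -0.15 for TOM and -0.26 for SAM, against -0.39, -0.35 and -0.29 for TIM22, TIM23 and the motor. The CPM totals of all genes were also lower in each labelled knockout library than in each control. The members are not replicates, and the difference between the classes was not tested. Without Timm21 the inner membrane median remained -0.35.

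**Figure D2:**
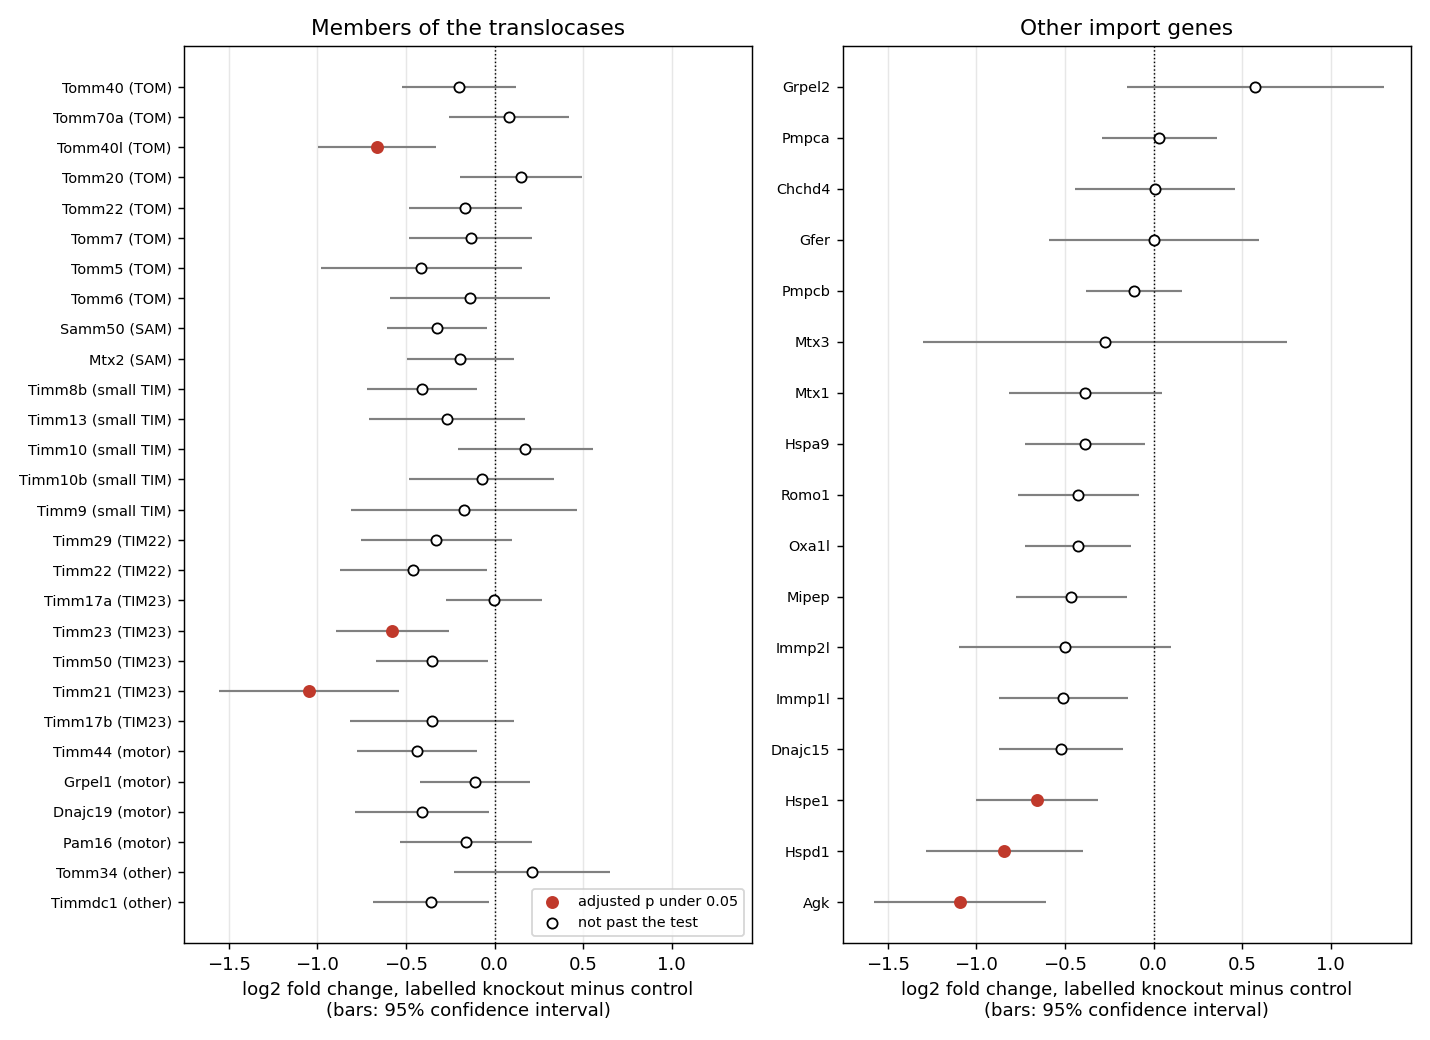
Log2 fold change, labelled knockout minus control, with 95% confidence intervals for the 28 tested members (left, by complex) and 17 other import genes (right). Filled red points passed an adjusted p under 0.05: Timm21, Timm23 and Tomm40l on the left and Agk, Hspd1 and Hspe1 on the right.

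Timm21 had the largest difference among the 28 tested members. It encodes a subunit of the TIM23 complex that reaches towards TOM and, in human cells, also takes part in the assembly of respiratory chain complexes. The gene lies on chromosome 18. Its level was 4.11, 4.09 and 4.90 log2 CPM in replicates 6, 7 and 8 labelled knockout, against 5.22, 5.41 and 5.61 log2 CPM in control replicates 3, 4 and 5. All labelled knockout libraries were below all controls, and replicate 8 lay closest to them, 0.51 below the control mean, while replicates 6 and 7 lay 1.31 and 1.33 below it. It fell by 1.05 ± 0.23 on the log2 scale (SE, limma adjusted p = 0.015). The call was lost without control replicate 4 or 5 (adjusted p = 0.072 and 0.096) and without the variance trend (0.093).

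Timm23, the channel subunit after which the complex is named, lies on chromosome 14 from 32180162 to 32201898 (mm10, annotated as GRCm38, minus strand). It had 6.38, 6.14 and 6.59 log2 CPM in replicates 6, 7 and 8 labelled knockout, against 6.95, 6.88 and 7.01 log2 CPM in control replicates 3, 4 and 5. The controls spanned a narrow range, and each labelled knockout library lay below it. The gene fell by 0.58 ± 0.15 on the log2 scale (SE, limma adjusted p = 0.027). It was not past the test without control replicate 3, 4 or 5 (adjusted p = 0.11, 0.098 and 0.14), without labelled knockout replicate 7 (0.072), without the trend (0.12) or with limma-voom on recovered reads (0.055).

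The other TIM23 subunits differed from one another. Timm50, the receptor that takes over proteins from TOM, averaged 5.89 ± 0.11 log2 CPM in labelled knockout hearts and 6.24 ± 0.13 in controls (SD, n = 3 each), with no overlap and an adjusted p of 0.15 (limma). Timm17a and Timm17b are alternative subunits that sit beside the channel. Timm17a had 7.06, 6.96 and 7.06 log2 CPM in the labelled knockout libraries, against 7.03, 6.95 and 7.10 log2 CPM in the controls. Its log2 fold change was -0.0027 with a 95% confidence interval of -0.28 to 0.27, so the groups overlapped fully. Timm17b, on the X chromosome, had 4.72, 4.20 and 4.16 log2 CPM in replicates 6, 7 and 8, against 4.51, 4.83 and 4.80 log2 CPM in the controls. Replicate 6 lay within the control range and the others below it (log2 fold change -0.35 ± 0.21, SE, limma adjusted p = 0.33). Timm17b made up 16.5%, 12.9% and 11.8% of the CPM of the pair in the labelled knockout libraries, against 14.8%, 18.6% and 16.9% in the controls, so the shares overlapped.

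Genes of the import motor were lower to different degrees, and 0 of 4 passed the test. Timm44, the anchor that holds Hspa9 at the channel, lies on chromosome 8 from 4259731 to 4275913. It had 6.80, 6.94 and 7.37 log2 CPM in replicates 6, 7 and 8 labelled knockout, against 7.51, 7.39 and 7.52 log2 CPM in the controls. Replicate 8 almost reached the lowest control, and the adjusted p was 0.098 with all libraries and 0.0054 without replicate 8 (limma). Without replicate 8, 9.39% of all tested genes fell, against 4.87% with all libraries. With any other library left out instead, the adjusted p of Timm44 was 0.2 to 0.28 (limma). Dnajc19, a co-chaperone of the motor whose loss causes a cardiomyopathy in humans, averaged 5.04 ± 0.17 log2 CPM in labelled knockout hearts and 5.45 ± 0.19 in controls (SD, n = 3 each), with no overlap (adjusted p = 0.16, limma). Pam16, its partner, averaged 4.97 ± 0.12 and Grpel1, the nucleotide exchange factor of Hspa9, 6.85 ± 0.16 log2 CPM in labelled knockout hearts. Control means were 5.13 ± 0.16 for Pam16 and 6.96 ± 0.16 for Grpel1, and the groups overlapped for both. The 4 genes together had 281, 295 and 364 CPM in the labelled knockout libraries and 397, 351 and 399 CPM in the controls, so replicate 8 overlapped the controls. Exons of Dnajc19 share 178 bases with Fxr1, and those of Grpel1 share 411 bases with Tada2b, each on the opposite strand.

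In the TIM22 complex the core gene Timm22 had 4.12, 4.03 and 4.03 log2 CPM in the labelled knockout libraries, against 4.43, 4.55 and 4.57 log2 CPM in the controls. The groups did not overlap, at 72.8% of the control level (adjusted p = 0.16, limma). Timm29, a second subunit, averaged 4.60 ± 0.25 in labelled knockout hearts and 4.93 ± 0.17 log2 CPM in controls (SD, n = 3 each), with overlap. Agk, a lipid kinase that is also a subunit of TIM22, carries no Timm name and is not a member. It had 3.48, 3.25 and 3.84 log2 CPM in replicates 6, 7 and 8 labelled knockout, against 4.53, 4.62 and 4.68 log2 CPM in the controls. The labelled knockout libraries lay 1.13, 1.37 and 0.77 below the control mean, and the gene fell to 47.0% of the control level (log2 fold change -1.09 ± 0.22, SE, limma adjusted p = 0.01). The call ended without control replicate 4 or 5 (adjusted p = 0.059 and 0.066) and without the trend (0.057). Agk lies on chromosome 6 from 40325172 to 40396762.

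Among the small TIM genes, Timm8b alone was separated by group. It had 5.80, 5.71 and 5.92 log2 CPM in the labelled knockout libraries, against 6.25, 6.11 and 6.31 log2 CPM in the controls (75.2% of the control level, adjusted p = 0.093, limma, and 0.048 without replicate 8). With any other library left out instead, the adjusted p was 0.12 to 0.29 (limma). Annotated exons of Timm8b share 81 bases with Nkapd1 on the opposite strand. Timm10 had 5.12, 4.95 and 4.92 log2 CPM in the labelled knockout libraries and 4.79, 4.98 and 4.70 log2 CPM in the controls, so the groups overlapped. Timm10b averaged 4.62 ± 0.20 log2 CPM in labelled knockout hearts and 4.69 ± 0.11 in controls (SD, n = 3 each). Timm13 and Timm9 varied widely among the hearts labelled knockout. Timm13 had 6.42, 5.64 and 5.66 log2 CPM there, against 6.06, 6.32 and 6.16 log2 CPM in the controls. Timm9 had 3.79, 3.05 and 4.27 log2 CPM in the labelled knockout libraries, against 3.83, 3.96 and 3.85 log2 CPM in the controls. For both genes the control values lay inside the range of the labelled knockout values. Chchd4 and Gfer, which oxidise these proteins, had log2 fold changes of 0.0076 (95% confidence interval -0.45 to 0.46) and 0.0006 (-0.59 to 0.59). Timm8a1 was not among the deposited genes.

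Of the TOM genes, 1 of 8 tested fell, against 4.87% of all tested genes. This was Tomm40l, a second gene for the channel protein beside Tomm40. It had 6.03, 5.57 and 5.74 log2 CPM in replicates 6, 7 and 8 labelled knockout, against 6.46, 6.46 and 6.42 log2 CPM in the controls. The controls were almost equal, and the labelled knockout libraries lay 0.42, 0.87 and 0.71 below their mean. The decrease was 0.66 ± 0.15 on the log2 scale (SE, limma adjusted p = 0.018), and it was not past the test without control replicate 3, 4 or 5 (adjusted p = 0.086, 0.091 and 0.085) or without the trend (0.096). Tomm40l lies on chromosome 1 from 171216011 to 171222514 on the minus strand, and the exons of its NM transcripts share 936 bases with NM transcripts of Nr1i3, a nuclear receptor gene on the other strand, and 3304 bases with all annotated transcripts of that gene. The name of the deposited table refers to NM transcripts and holds the tag nStr, which no source used here explains. Whether counting used strand is therefore not known, and reads of the genes may not be separable there. Nr1i3 itself averaged 1.18 ± 0.57 log2 CPM in labelled knockout hearts and 2.19 ± 0.07 in controls (SD, n = 3 each).

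Tomm40, the main channel gene, had 6.997, 6.56 and 6.96 log2 CPM in the labelled knockout libraries, against 7.01, 6.97 and 7.13 log2 CPM in the controls (log2 fold change -0.20 ± 0.15, SE, limma adjusted p = 0.45). The share of Tomm40l in the CPM of the pair was 33.8%, 33.5% and 30.0% in the labelled knockout libraries and 40.5%, 41.1% and 37.9% in the controls. These shares did not overlap. The level of Tomm40 exceeded that of Tomm40l by 1.06 ± 0.14 log2 units in labelled knockout hearts and by 0.60 ± 0.11 in controls (SD, n = 3 each).

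**Figure D3:**
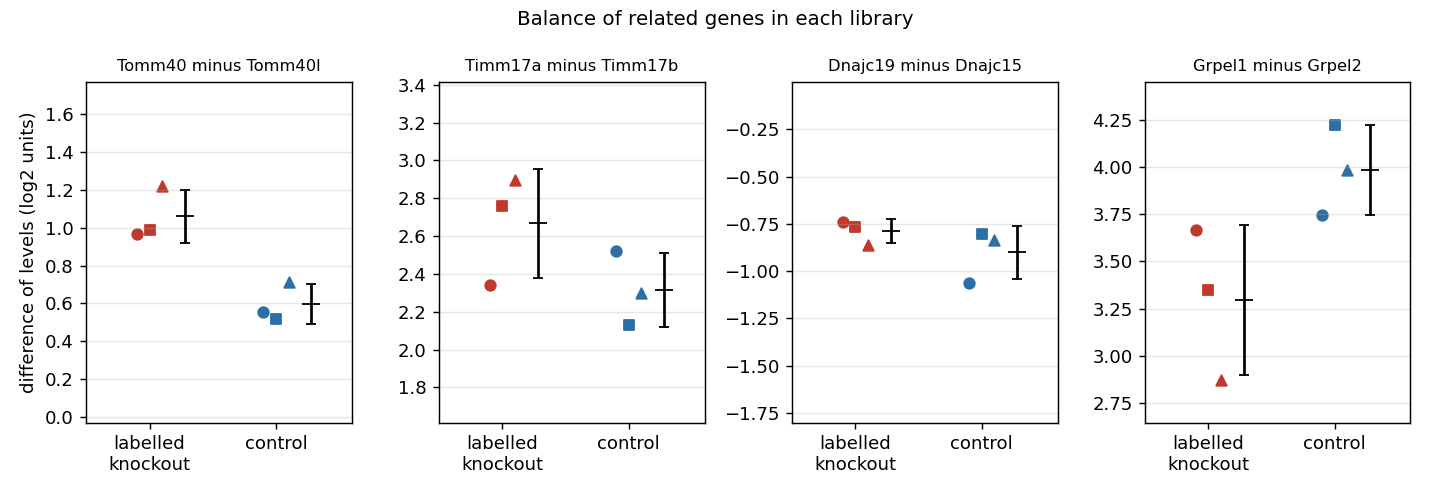
Difference between the log2 CPM of 2 related genes in each library (y axis, log2 units, each panel spanning the same distance), with labelled knockout libraries in red on the left and controls in blue on the right; black marks give the mean ± SD of 3 libraries. Tomm40 minus Tomm40l averaged 1.06 in labelled knockout hearts and 0.60 in controls with no overlap, while Timm17a minus Timm17b and Dnajc19 minus Dnajc15 overlapped between the groups.

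The receptor genes of TOM showed no common direction. Tomm20 had 6.07, 6.05 and 6.51 log2 CPM in the labelled knockout libraries, against 6.12, 6.05 and 6.02 log2 CPM in the controls, and replicate 8 alone stood above the rest. Tomm70a, the receptor for carrier proteins, had 6.56, 7.07 and 6.99 log2 CPM in the labelled knockout libraries, against 6.70, 6.82 and 6.86 log2 CPM in the controls, so the controls lay within the range of the other group. Tomm22, the central receptor, averaged 5.72 ± 0.05 log2 CPM in labelled knockout hearts and 5.89 ± 0.12 in controls (SD, n = 3 each). Confidence intervals of the log2 fold change were -0.20 to 0.49 for Tomm20, -0.25 to 0.42 for Tomm70a and -0.48 to 0.15 for Tomm22.

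The small subunits Tomm5, Tomm6 and Tomm7, which stabilise the complex, also overlapped between the groups. Tomm5 was the most uneven, with 5.68, 4.44 and 5.10 log2 CPM in replicates 6, 7 and 8 labelled knockout, against 5.47, 5.68 and 5.33 log2 CPM in the controls. Its log2 fold change was -0.41, and it was -0.72 without replicate 6 and -0.095 without replicate 7. Tomm6 averaged 5.08 ± 0.36 log2 CPM in labelled knockout hearts and 5.22 ± 0.21 in controls, and Tomm7 averaged 5.54 ± 0.13 in labelled knockout hearts and 5.68 ± 0.17 in controls (SD, n = 3 each). Exons of the NM transcripts of Tomm6 share 93 bases with those of Usp49 on the opposite strand. They share 656 bases with Gm21981 on the same strand, of which 0 lie in NM transcripts of that gene. Tomm20l had 0, 3 and 3 recovered reads in the labelled knockout libraries and 2, 10 and 17 in the controls, too few for a comparison.

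Samm50, the core of the SAM complex, had 8.58, 8.29 and 8.51 log2 CPM in the labelled knockout libraries, against 8.81, 8.69 and 8.86 log2 CPM in the controls. The groups did not overlap, and the level was 79.7% of control (adjusted p = 0.14, limma). Mtx2, a metaxin of the same complex, averaged 6.78 ± 0.18 log2 CPM in labelled knockout hearts and 6.97 ± 0.05 in controls (SD, n = 3 each), with overlap. Tomm34, a cytosolic co-chaperone that binds proteins before import, averaged 4.39 ± 0.12 log2 CPM in labelled knockout hearts and 4.18 ± 0.19 in controls (SD, n = 3 each), with overlap. Timmdc1 shares the Timm name but helps to assemble complex I. It had 5.80, 5.47 and 5.64 log2 CPM in the labelled knockout libraries, against 5.97, 6.04 and 5.98 in the controls, with no overlap (adjusted p = 0.16, limma).

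Per kilobase of transcript, which allows genes to be compared, Timm8b had the highest level in both groups, with 109 ± 7.92 CPM per kb in labelled knockout hearts and 144 ± 9.82 in controls (SD, n = 3 each). In the controls Timm23 and Timm44 followed with 105 ± 4.78 and 99.4 ± 5.13 CPM per kb, values that differ by about their spread, and then Samm50 with 95.6 ± 5.64. In labelled knockout hearts Timm23 ranked 5 of 29 at 71.1 ± 10.9, with Samm50, Timm44 and Tomm40 at 76.4 ± 8.03, 74.4 ± 15.7 and 71.8 ± 11.3 CPM per kb, all within their spread. Timm21 had 8.85 ± 3.06 CPM per kb in labelled knockout hearts and 17.7 ± 2.37 in controls. Timm17a had 17.9 ± 0.74 CPM per kb in labelled knockout hearts and 18.0 ± 0.93 in controls, so it lay within the spread of Timm21 in the controls. Lengths are means of the RefSeq NM transcripts of each gene in GENCODE.

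**Figure D4:**
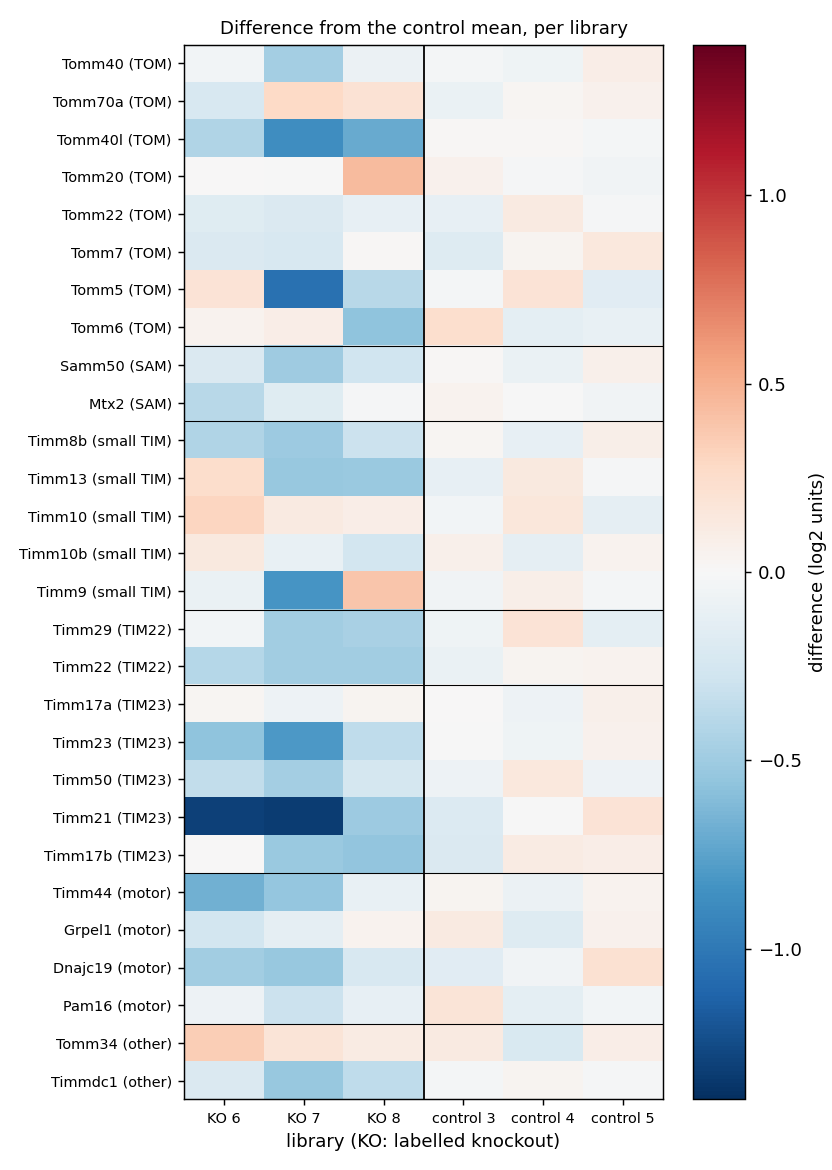
Difference of each library from the control mean (colour, log2 units) for the 28 tested members, grouped by complex, with labelled knockout libraries (KO) left of the black line and controls right of it. Replicate 7 has the lowest value of its group in 18 of the 28 genes, and Timm21 is the darkest row, at -1.31 and -1.33 in replicates 6 and 7.

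The libraries labelled knockout differed in how far they lay from the controls. Replicate 7 had the lowest value of its group in 18 of the 28 members, replicate 8 in 6 and replicate 6 in 4. The median difference from the control mean over all members was -0.19, -0.48 and -0.23 log2 units in replicates 6, 7 and 8. For inner membrane genes it was -0.34, -0.49 and -0.24, and for outer membrane genes -0.19, -0.21 and -0.10. The inner membrane median was thus the lower one in each of the 3 libraries, all set against the same control means, so these are not independent comparisons. The small TIM genes differed between libraries in sign, with 0.14 in replicate 6 and -0.51 and -0.26 in replicates 7 and 8.

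Of 17 other genes of the import pathway that are not members, 3 fell and 0 rose, beside 4.87% and 4.79% of all tested genes. They were Agk, described above, and Hspd1 and Hspe1, which encode the chaperonin that folds imported proteins and its lid. Hspd1 had 7.79, 8.19 and 8.75 log2 CPM in replicates 6, 7 and 8 labelled knockout, against 9.21, 9.17 and 8.87 log2 CPM in the controls. Hspe1 had 6.25, 5.87 and 6.42 log2 CPM in the labelled knockout libraries, against 6.91, 6.82 and 6.78 log2 CPM in the controls. Neither gene overlapped between the groups, and replicate 8 lay nearest to the controls in both. They fell by 0.84 ± 0.20 and 0.66 ± 0.16 on the log2 scale (SE, limma adjusted p = 0.022 each). The genes stand head to head on chromosome 1, Hspd1 from 55077835 to 55088243 on the minus strand and Hspe1 from 55088132 to 55091307 on the plus strand. Hspd1 lost its call without control replicate 3, 4 or 5 or labelled knockout replicate 6 or 7 (adjusted p = 0.1, 0.11, 0.064, 0.059 and 0.064). Hspe1 lost it without control replicate 3, 4 or 5 or labelled knockout replicate 7 (0.11, 0.097, 0.09 and 0.056), and both lost it without the trend (0.14 and 0.12).

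The 17 genes had a median log2 fold change of -0.42, and 11 were without overlap and lower, a share of 64.7% against 16.2% of all tested genes. Hspa9, the motor chaperone, had 9.39, 9.72 and 9.96 log2 CPM in the labelled knockout libraries, against 10.03, 10.05 and 10.15 log2 CPM in the controls (adjusted p = 0.15, limma, and 0.0096 without replicate 8). With any other library left out instead, the adjusted p of Hspa9 was 0.2 to 0.38 (limma). Dnajc15, a gene related to Dnajc19, lay at 69.6% of the control level, and the leader-removing peptidase gene Mipep at 72.5% (adjusted p = 0.06 and 0.063, limma). Pmpca and Pmpcb, the subunits of the main processing peptidase, overlapped between the groups, with log2 fold changes of 0.034 and -0.11. Grpel2, which is related to Grpel1, had 3.04, 3.48 and 4.14 log2 CPM in the labelled knockout libraries, against 3.34, 2.56 and 3.03 log2 CPM in the controls. Its levels overlapped (log2 fold change 0.57, 95% confidence interval -0.15 to 1.30, and 0.28 without labelled knockout replicate 8 or 0.36 without control replicate 4). Grpel1 exceeded Grpel2 by 3.30 ± 0.40 log2 units in labelled knockout hearts and by 3.98 ± 0.24 in controls (SD, n = 3 each), without overlap.

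Set beside other mitochondrial genes in the same fit, 3 of 28 import members (10.7%) fell, against 29 of 38 complex I subunit genes (76.3%) and 21 of 78 mitochondrial ribosomal protein genes (26.9%). Median log2 fold changes were -0.23, -0.57 and -0.36. Over all tested genes 4.87% fell and the median was -0.01. The difference between these lists was not tested. The median of the import members lay closer to 0 than that of complex I in each labelled knockout library, with -0.19, -0.48 and -0.23 against -0.56, -0.74 and -0.41 log2 units in replicates 6, 7 and 8. All of these libraries were set against the same control means.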

How the data were processed

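RNA of 6 mouse heart libraries was measured. Per the submitters' processing notes the authors used the build mm10 and the tools CASAVA, HISAT2 and edgeR, with no version or role given. The deposited table holds log2 CPM of 14133 genes, with a common lowest value of -3.29 from a pseudocount added before deposit, and no filter is stated. Reads per gene were recovered from the steps of the values (83.6% to 84.9% of values whole within 0.002 reads), and the remainder are fractions. Of the 29 members 22 were whole in all 6 libraries.

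The table was fitted with limma 3.58.1 in R 4.3.3, two-sided, on the 12516 genes whose mean reached 0 log2 CPM (1617 were left out), and p-values were adjusted over all of them. In simulated libraries with 200 changed genes among these 12516, the test found 2% of changes of 0.5 log2 units, 54% of changes of 1, 86% of changes of 2 and 92% of changes of 3. Of its 128 calls 11 were false. These libraries were drawn with the moderated SD of the fit. A first simulation with each gene's own SD had found 0%, 30%, 74% and 78% of the same changes, with 4 of 95 calls false, which was below the 80% set for the largest change, and the moderated SD was adopted after that result was seen. Differences are labelled knockout minus control. The alternatives changed the filter (none, or a mean of 3), the scaling (median centring, quantiles), the pseudocount (to 1), the variance model (untrended, robust), the weights of libraries, the threshold (to 0.01), the tool (limma-voom on recovered reads) or left out 1 library at a time. The limma-voom setting also changed the scaling, as it divided recovered reads by their totals alone. Members, gene lists, complexes and cell type markers were chosen with earlier results of these data known. Named were all members, the import genes past the test, Hspa9, Chchd4, Gfer and Txn1. Dnajc15, Mipep, Pmpca, Pmpcb, Grpel2 and Nr1i3 were named after their values were seen. Coordinates, lengths and exon overlaps are from GENCODE M21 on GRCm38, the assembly of mm10, counted from 1. Intervals cover the spread of 3 libraries per group.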

Additional observations from a re-analysis of the deposited data

How the results depend on the processing

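With 3 libraries a group, decreases of the size seen in most members were rarely recovered in simulated data. The simulation changed 200 genes, while the fit to the data called 1209. Adjusted p depends on how many genes change, so the simulated shares do not give the sensitivity of the fit to the data. In that fit 29 of 38 complex I genes fell, with a median log2 fold change of -0.57 over the 38. Whether the members not past the test include changes of the size seen in them was not resolved. Of the 28 members 3 fell with all libraries, 0 without the variance trend (where 50 of 12516 genes fell in all), 0 at a threshold of 0.01 and 0 to 5 with 1 library left out. Dropping control replicate 3, 4 or 5 gave 1, 0 and 0, where 1.77%, 1.29% and 1.31% of all tested genes fell. Dropping labelled knockout replicate 6, 7 or 8 gave 3, 2 and 5, where 4.3%, 3.03% and 9.39% fell, so the number of calls moved over the whole table too. Among the 17 other import genes 3 fell, 0 without the trend, 1 at a threshold of 0.01, 6 with library weights and 0 to 7 with 1 library left out. Over all tested genes 1.61% fell at the threshold of 0.01 and 6.33% with library weights. No member rose in any of these fits. The cause of these differences was not tested. Limma-voom called 480 genes lower and 840 higher, against 609 and 600. It used recovered reads divided by their totals alone, so the scaling changed together with the tool. The medians of outer and inner membrane genes ranged from -0.23 to -0.12 and from -0.42 to -0.29 with 1 library left out. They were not taken with limma-voom or library weights, so these ranges do not cover those settings. With limma-voom the inner membrane gene Timm50, for example, moved from -0.35 to -0.26 and the outer membrane gene Mtx2 from -0.19 to -0.10.

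Genes close to 0 changed sign. With limma-voom Timm10b stood at 0.014 and Timm17a at 0.091, and Gfer stood at -0.0018 with centred libraries and -0.017 with library weights. With 1 library left out, the log2 fold change ranged from -0.18 to 0.020 for Timm10b, -0.041 to 0.034 for Timm17a, -0.46 to 0.15 for Timm9, -0.0007 to 0.23 for Tomm20, -0.26 to 0.070 for Tomm6, -0.015 to 0.24 for Tomm70a, -0.13 to 0.089 for Chchd4, -0.20 to 0.26 for Gfer and -0.054 to 0.16 for Pmpca. No paired analysis was possible because the groups share no replicate number.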
